A study of Mus musculus with 4 samples.

Results

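The VEGF and angiopoietin receptors and ligands described here are 10 named genes: the VEGF receptor genes Kdr, Flt1 and Flt4, the neuropilin genes Nrp1 and Nrp2, the angiopoietin receptor genes Tek and Tie1, and the ligand genes Angpt1, Angpt2 and Vegfc. They were chosen by name, with earlier results of these data known but no threshold on a measured value. They are 10 of the 21883 genes annotated as protein-coding on the autosomes and sex chromosomes. Each gene was located in the mouse genome, and the share of its annotated span inside called regions, the limits of those regions and their tags per kb were read from each list. Binding of RNA polymerase II (Pol II), the enzyme that transcribes protein-coding genes, was mapped by ChIP-seq in flash-frozen lung, liver, kidney and heart from mice of the C57BL/6 strain. The organs came from 2 mice, and no allele, transgene or treatment is named, so the 4 groups share strain and protocol. The antibody, 4H8, recognises the C-terminal tail (CTD) of Pol II, and libraries were made with the Tn5 transposase. One list of called regions was analysed per organ, so n = 1 for every value and no difference between organs has a replicate error or a test. The sources used here give neither the age and sex of the animals nor whether a list joins both of them.

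VEGF ligands act on endothelial cells, the inner lining of vessels, through receptor tyrosine kinases, and neuropilins bind VEGF beside these kinases. Kdr encodes VEGF receptor 2, the main signalling receptor of blood vessel endothelium. Flt1 encodes VEGF receptor 1, which binds VEGF tightly and also exists as a soluble decoy, and Flt4 encodes VEGF receptor 3, the receptor for VEGF-C on lymphatic vessels. Angiopoietins act through Tie2, the product of Tek, whose partner Tie1 is related to it: angiopoietin 1 comes mainly from cells around the vessel and activates Tie2, whereas angiopoietin 2 is released by endothelium and often opposes it.

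The sequences directly upstream of 5 receptor starts are shown because the lists differed at most of these starts between organs. Each is the 250 bases before the annotated start, from the RefSeq promoter table of GRCm38.p6, written 5′ to 3′ on the strand of the gene. Entries were found for 8 of the 10 genes. The annotated spans of Kdr, Flt1, Nrp1 and Tek begin 0.617, 0.427, 0.482 and 0.203 kb before that start, so these windows lie inside the spans used for coverage, wholly for Kdr, Flt1 and Nrp1 and in part for Tek. Kdr lies at chr5:75978456-75978705 on the minus strand, Flt1 at chr5:147726012-147726261 on the minus strand, Tek at chr4:94739039-94739288 on the plus strand, Tie1 at chr4:118489850-118490099 on the minus strand and Nrp1 at chr8:128358823-128359072 on the plus strand. Capitals mark each match, on either strand, to 6 short motifs. These were AGGAAG and CGGAAG, which are cores bound by ETS factors, AGATAA for zinc-finger factors of the GATA family, TATAAA for the TBP box, GGGCGG for the GC box and TGTTTAC for forkhead factors.
Kdr: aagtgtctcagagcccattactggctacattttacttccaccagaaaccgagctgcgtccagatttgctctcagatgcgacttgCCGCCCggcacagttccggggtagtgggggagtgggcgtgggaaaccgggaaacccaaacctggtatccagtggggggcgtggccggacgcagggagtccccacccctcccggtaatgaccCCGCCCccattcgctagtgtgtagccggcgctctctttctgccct
Flt1: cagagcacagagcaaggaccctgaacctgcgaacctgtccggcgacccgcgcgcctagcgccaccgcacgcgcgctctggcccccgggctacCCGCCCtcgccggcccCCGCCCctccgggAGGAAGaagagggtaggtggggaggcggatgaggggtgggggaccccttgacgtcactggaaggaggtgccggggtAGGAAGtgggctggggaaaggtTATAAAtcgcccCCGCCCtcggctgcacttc
Tek: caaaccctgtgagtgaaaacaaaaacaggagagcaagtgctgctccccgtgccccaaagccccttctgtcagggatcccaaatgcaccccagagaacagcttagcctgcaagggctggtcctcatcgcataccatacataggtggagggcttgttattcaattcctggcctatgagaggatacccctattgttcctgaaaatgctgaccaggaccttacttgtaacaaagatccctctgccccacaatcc
Tie1: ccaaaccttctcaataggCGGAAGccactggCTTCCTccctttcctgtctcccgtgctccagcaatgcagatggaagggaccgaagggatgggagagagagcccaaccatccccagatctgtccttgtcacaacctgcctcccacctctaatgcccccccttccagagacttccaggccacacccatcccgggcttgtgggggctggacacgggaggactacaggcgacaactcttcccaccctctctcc
Nrp1: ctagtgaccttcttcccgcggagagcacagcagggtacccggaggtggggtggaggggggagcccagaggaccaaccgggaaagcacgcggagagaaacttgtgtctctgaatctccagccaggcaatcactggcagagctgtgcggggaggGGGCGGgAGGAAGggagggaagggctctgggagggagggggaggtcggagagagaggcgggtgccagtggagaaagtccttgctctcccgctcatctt

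The upstream sequences differed widely in base composition. Tek had 51.2% G and C and 2 CpG dinucleotides, and Tie1 had 60.4% and 6. At the other end, Flt1 had 70.4% and 23 CpGs, Nrp2 72.4% and 32, and Vegfc 71.6% and 30. Over all 17491 promoters of the table the medians were 55.2% and 10. The GC box was found in 6 of the 8 sequences, all but Tek and Tie1, against 42.7% of all promoters. AGGAAG was found in 3 of 8 (Flt1, Nrp1 and Tie1) against 28.2%, CGGAAG in 1 of 8 (Tie1) against 17.2%, and TATAAA in 1 of 8 against 12.4%, namely Flt1, where it began 31 bases before the start. Neither AGATAA (9.12% of all promoters) nor TGTTTAC (2.58%) was found in any of the 8 windows. A match is a string of letters and was not tested as a binding site.

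Sequencing depth was lowest for heart, with 9880184 tags, followed by lung (13296938), kidney (16589890.5, a value the header gives with a decimal) and liver (20058183), and the lists held 61956 regions in liver to 101051 in lung. The 4 organ labels were checked on markers, 6 per organ. All 6 heart muscle genes were covered over at least 50% of their span in heart and none elsewhere, all 6 hepatocyte genes in liver and none elsewhere, all 6 kidney tubule genes in kidney (1 also in liver and 1 in lung) and all 6 lung epithelial genes in lung (1 in heart, 1 in kidney and 2 in liver). The measure used between organs is tags per kb of span: the tag counts of overlapping regions, which the authors scaled to 10000000 per library, shared out by overlapped length and divided by the annotated length of the gene, introns included. Tags outside called regions are not in the lists, so a gene with no region was not called and is not shown to lack polymerase. Intervals in brackets are exact 95% Poisson or binomial intervals and cover counting error only. In whole organs, fewer cells of a type and less polymerase per cell cannot be told apart.

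The receptor genes carried most Pol II in heart, and the ligand genes carried little in any organ. Summed over the 10 genes, tags per kb of span came to 115 in heart, 41.5 in lung, 36.3 in liver and 14.0 in kidney. Few genes carried these sums: in heart Kdr gave 46.3, Nrp1 27.5 and Flt1 20.5, and in liver Nrp1 alone gave 23.1. Regions were called separately in each list, and sums over them depend on the covered length, which was 374 kb over the 10 genes in heart, 228 kb in lung, 147 kb in liver and 102 kb in kidney. The mean density over that length was 30.6 tags per covered kb in heart, 18.8 in lung, 31.4 in liver and 18.5 in kidney. At least 50% of the span was covered for 3 of 10 genes in heart (Kdr, Nrp1 and Flt1), where 16.1% of all genes reached that share, and for 2 of 10 in lung (Nrp1 and Kdr), against 15.1% of all genes. In liver the count was 1 of 10 (Nrp1) against 21.9%, and in kidney 0 of 10 against 21.1%. The median covered share of the 10 genes was 17.8% in heart and 12.4% in lung, with 2.26% and 3.88% over all genes. In liver and kidney it was 3.18% and 2.85%, with 2.76% and 5.07% over all genes. Heart held the highest value for 6 of the 10 genes, against 26.7% of the 15759 genes with a region in any list. Of the others, Tek was highest in lung (17.0% of those genes), Angpt1 in kidney (25.1%), and Angpt2 and Vegfc in liver (31.2%).

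**Figure D1:**
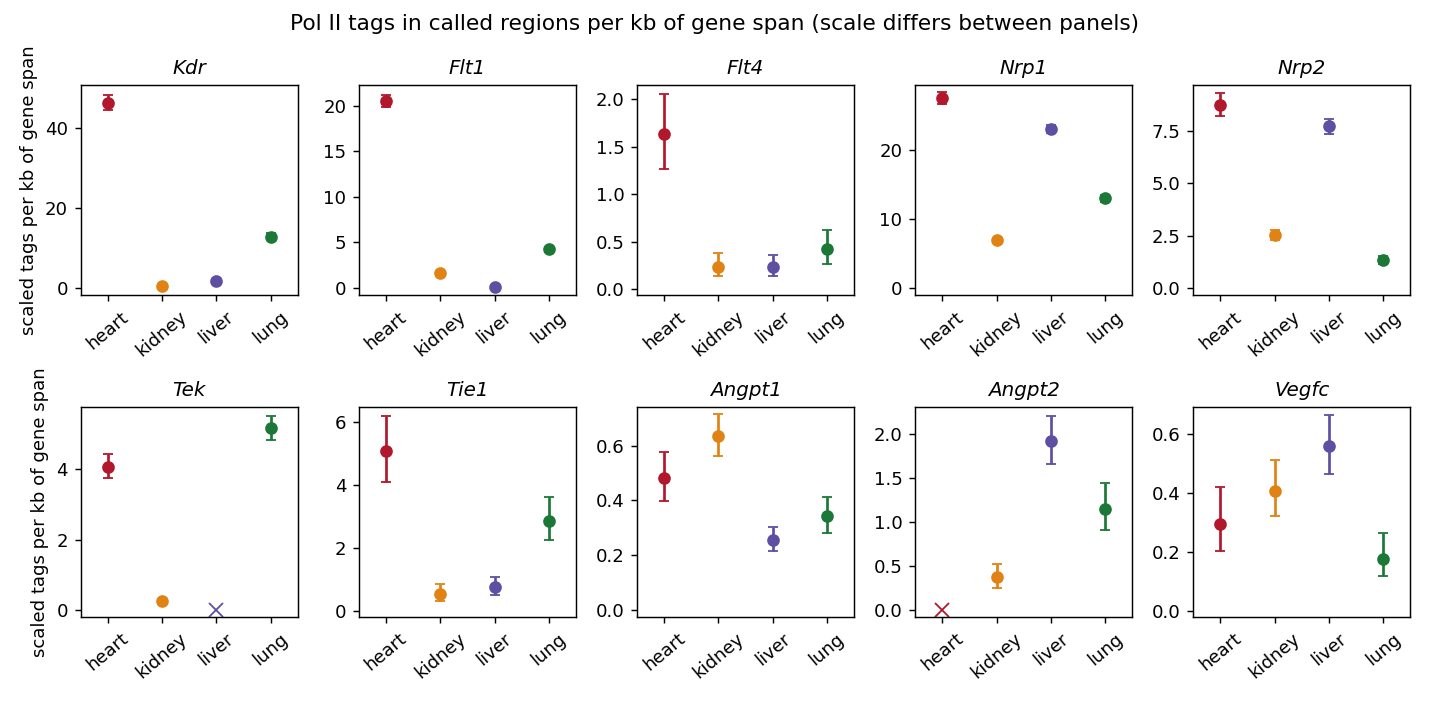
Tags per kb of annotated span in heart, kidney, liver and lung (1 list per organ), with a panel for each of the 10 genes. The scale is linear and differs between panels. Bars are exact 95% Poisson intervals that cover counting error only, and a cross marks a gene without a region. Kdr runs from 46.3 in heart to 0.470 in kidney, whereas Angpt1 and Vegfc stay under 0.7 in every list.

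Ratios between organs were taken for genes with a region in both lists, and a ratio was counted at 2-fold or more. Angpt2 had no heart region and so no ratio to heart, with 1.92 tags per kb in liver, 1.15 in lung and 0.377 in kidney. Likewise, Tek had no liver region and no ratio to liver. Heart exceeded kidney 2-fold for 7 of 9 genes (20.9% of all genes), liver for 4 of 8 (24.1%) and lung for 5 of 9 (26.0%), and none of these genes was 2-fold lower in heart than in kidney (28.4% of all genes), liver (32.0%) or lung (20.0%). Lung exceeded kidney 2-fold for 5 of 10 genes (16.5% of all genes), and kidney exceeded lung for 1, Vegfc (30.5%). Lung exceeded liver 2-fold for 3 of 9 genes (20.3%), and liver exceeded lung for 2, Nrp2 and Vegfc (35.4%). Liver exceeded kidney 2-fold for 4 of 9 genes (23.4%), namely Kdr, Nrp1, Nrp2 and Angpt2, and kidney exceeded liver for 2, Flt1 and Angpt1 (23.8%). The median heart to kidney ratio was 6.89 over the genes described here and 0.943 over all genes. For heart to liver the medians were 3.57 and 0.912, and for heart to lung 2.12 and 1.20. These comparisons share their organ lists and are not independent of each other. Lung values ran low in general: the median gene with a region in both lists was 0.26 higher on the log2 scale in heart than in lung, 0.35 higher in kidney and 0.44 higher in liver.

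Each ratio is the product of a ratio of covered lengths and a ratio of densities inside called regions, and the caller's threshold keeps the latter from falling far. In the 38 gene and organ combinations with a region, density ran from 14.2 to 46.3 tags per covered kb, and only 5 exceeded 25: Kdr (46.3), Nrp1 (31.6), Flt1 (27.9) and Tie1 (26.8) in heart and Nrp1 (37.4) in liver. The threshold corresponded to 18.2 tags per kb in heart, 16.5 in lung, 14.5 in kidney and 14.0 in liver. On density alone, heart exceeded lung 2-fold for 1 of 9 genes, Kdr, with 46.3 against 19.6 tags per covered kb. There the density ratio was 2.36 and the length ratio 1.53, and for Nrp1 they were 1.62 and 1.30.

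**Figure D2:**
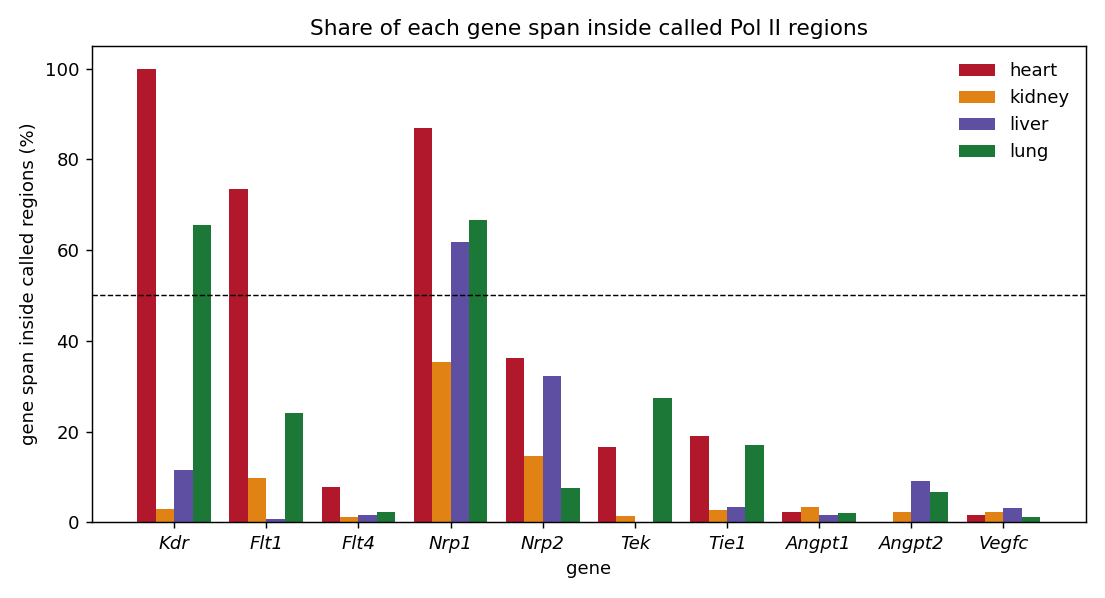
Percent of each gene's annotated span inside called regions in the 4 lists, 1 bar per gene and organ, with a dashed line at 50%. Kdr reaches 100% in heart and 65.4% in lung but 3.03% in kidney, and Nrp1 is the gene with over 30% covered in every list.

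Kdr had the highest Pol II level of the 10 genes and, after Flt1, the widest spread among those with a region in every list. It spans 46.2 kb at 75932827 to 75979072 of chromosome 5 and is read from the higher coordinate. Its level was 46.3 tags per kb in heart [44.3 to 48.3], 12.8 in lung [12 to 13.8], 1.71 in liver [1.46 to 2.0] and 0.470 in kidney [0.329 to 0.650]. The intervals of the 4 organs did not overlap, and heart was followed by lung, liver and kidney. The heart value stood above 98.7% of all genes in that list, and the kidney value above 45.7%. Genes without a region count as 0 in these shares, and only 61.0% of all genes had a region in kidney. The kidney median over all genes was 0.907 tags per kb, above the Kdr value. Heart exceeded lung 3.60-fold [3.32 to 3.91], liver 27.0-fold [23.0 to 31.9] and kidney 98.4-fold [71.0 to 141].

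In heart a single region of 65.8 kb, from 75915483 to 75981313, ran over the whole of Kdr and past both of its ends. In lung 14 regions covered 65.4% of the span, the longest of 8.26 kb over the start with 24.3 tags per kb. In liver the longest of 4 regions, 3.55 kb, began inside the gene, 1.16 kb past the start, and neither liver nor kidney had a region over the start itself. Because the heart region covered the whole gene, all bases of Kdr covered in kidney, liver or lung necessarily lay inside it. Coverage continued into the 50 kb after the end of Kdr, 60.6% in heart, 18.1% in lung, 1.0% in kidney and 0% in liver, and into the 50 kb before its start, 42.4%, 23.5%, 1.0% and 0%. The nearest other protein-coding genes were Srd5a3, 161 kb above, and Kit, 276 kb below. The lncRNA gene Gm32727, at 75977332 to 76013212, overlaps the first 1.74 kb of Kdr and runs on into the 50 kb before its start. Gm32727 was covered over 27.2% in lung, 22.7% in heart and 0% in kidney and liver. The stretch before Kdr is thus not free of annotated genes, and coverage there cannot be assigned to Kdr.

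**Figure D3:**
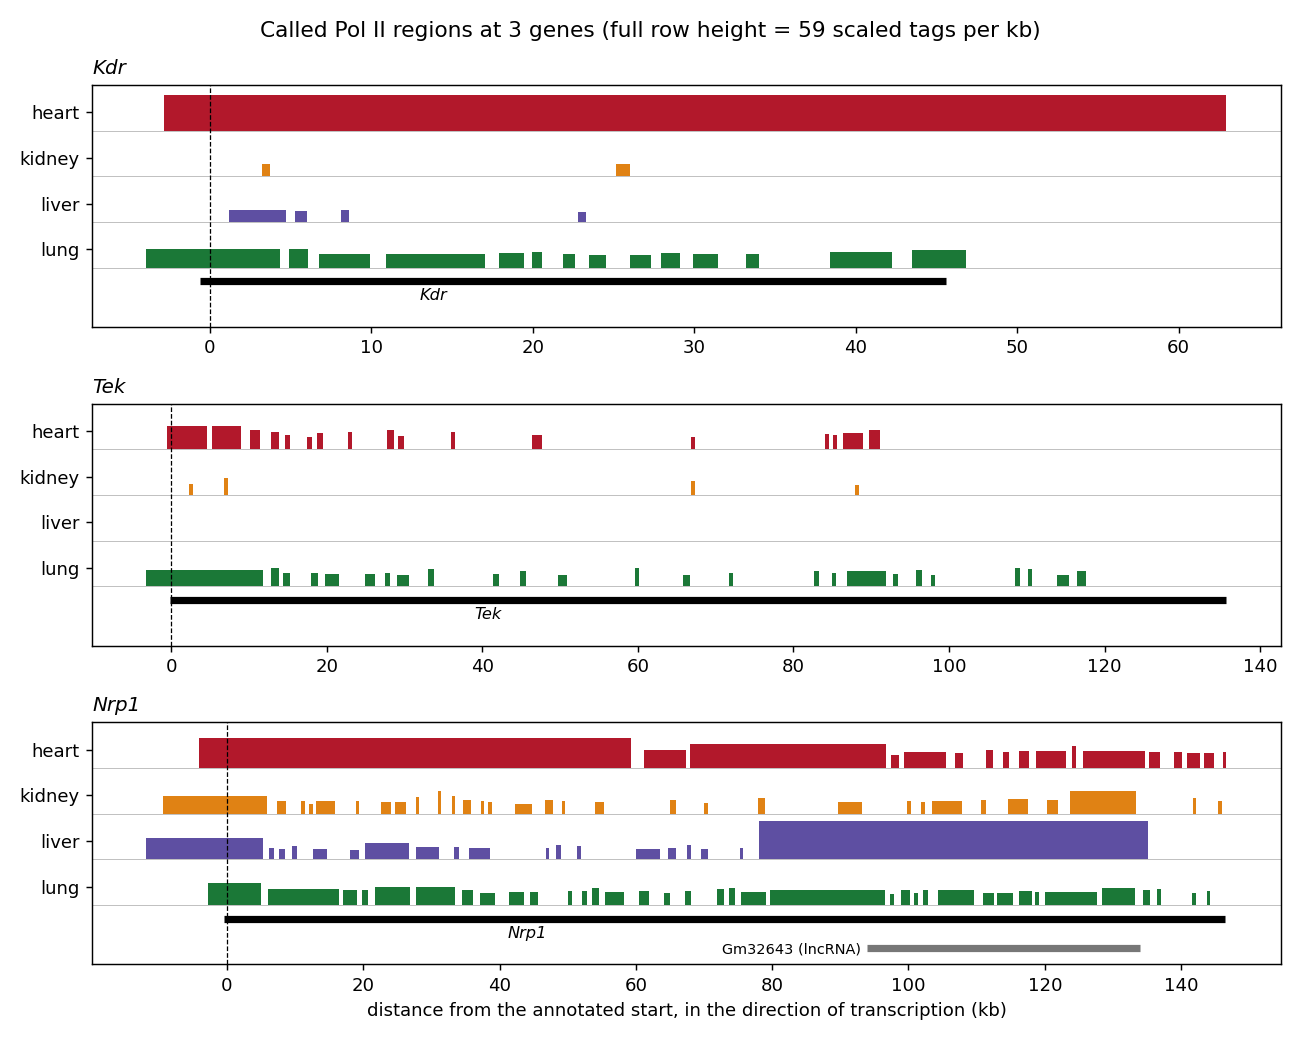
Called regions at Kdr, Tek and Nrp1 by distance from the annotated start (kb, direction of transcription to the right), with bar height giving tags per kb of each region and black bars the annotated spans. Kdr is 1 region in heart and 14 in lung, Tek shares a block near 87 kb between heart and lung, and a liver region of 57.0 kb lies over the later part of Nrp1.

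Flt1 was likewise highest in heart and second in lung, but was nearly uncalled in liver. It spans 164.8 kb at 147561604 to 147726438 of chromosome 5, on the minus strand. Its level was 20.5 tags per kb in heart [19.8 to 21.2], 4.23 in lung [3.96 to 4.51], 1.66 in kidney [1.51 to 1.82] and 0.0862 in liver [0.0587 to 0.126]. Kidney thus stood above liver for Flt1, the opposite of Kdr. Heart exceeded lung 4.85-fold [4.51 to 5.22], kidney 12.3-fold [11.2 to 13.6] and liver 238-fold [162 to 350], the last against only 1.0 kb of called sequence in 2 regions.

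Pol II was spread unevenly along Flt1, with some of the higher stretches of heart and lung at similar positions. Cut into 10 equal bins from the start, heart had 32.2 tags per kb in bin 1, 29.3 in bin 5 and 27.1 in bin 9, with 12.6 in bin 2 and 13.9 in bin 8. Lung had 6.95, 10.9 and 6.43 in bins 1, 5 and 9, and 1.32 and 1.35 in bins 2 and 8. The likeness was partial: bin 6 had 28.0 in heart, above its bin 9, but 3.93 in lung. Bin 4 had 6.35 in lung, close to its bin 9, and 19.8 in heart. Of the lung bases covered in Flt1, 92.3% lay inside heart regions, and these made up 30.3% of the heart bases. Heart regions covered 73.6% of the Flt1 span, so a large overlap arises from their length alone. Of the kidney bases, 71.9% lay inside heart regions. The start was overlapped in heart by a region of 16.0 kb at 35.8 tags per kb, in lung by one of 5.12 kb at 17.3 and in liver by one of 0.5 kb at 14.0, but not in kidney. Coverage in the 50 kb after the end of Flt1 was 38.5% in kidney, 30.4% in lung, 24.6% in liver and 9.35% in heart, a stretch that also holds the nearest protein-coding gene, Pan3, from 13.1 kb past the end.

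**Figure D4:**
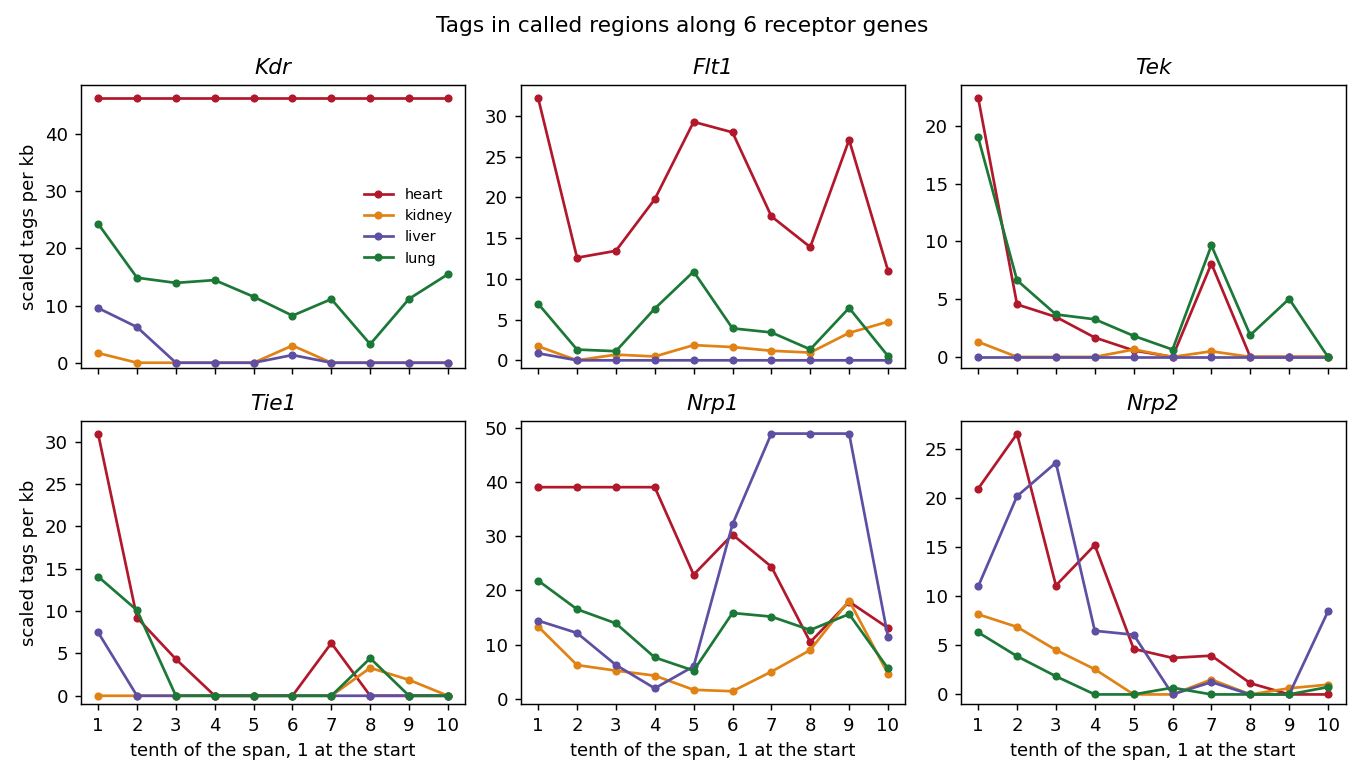
Tags per kb along the annotated span of selected genes, cut into 10 equal parts from the start to the end of the gene, in the 4 lists. Tags are even within a region by construction, so Kdr in heart is flat at 46.3. In Flt1, heart and lung share local maxima in bins 1, 5 and 9, while bin 6 is high in heart only.

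Flt4 was weakly called in every organ. It spans 43.1 kb at 49609679 to 49652739 of chromosome 11, on the plus strand. Its level was 1.63 tags per kb in heart [1.26 to 2.05], 0.420 in lung [0.269 to 0.624], 0.237 in kidney [0.139 to 0.381] and 0.232 in liver [0.141 to 0.358]. Heart stood apart, and the intervals of the other 3 organs overlapped. The 5 heart regions were at most 0.771 kb long, and no list had a region over the start, although heart began one 0.082 kb past it. Heart exceeded lung 3.88-fold [2.4 to 6.44], which rests on 69 library tags in heart and 24 in lung before scaling to equal depth.

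Nrp1, the larger of the neuropilin signals, was the one gene, of the 8 with an annotated start, whose start was covered in all 4 lists. It spans 146.9 kb at 128358591 to 128505476 of chromosome 8, on the plus strand. Its level was 27.5 tags per kb in heart [26.7 to 28.4], 23.1 in liver [22.6 to 23.7], 13.0 in lung [12.5 to 13.5] and 6.89 in kidney [6.56 to 7.22]. The covered share was 87.0%, 61.7%, 66.7% and 35.4% in the same order. Liver therefore stood second for Nrp1, next to heart (1.19-fold higher in heart [1.14 to 1.24]), whereas for Kdr heart exceeded liver 27.0-fold. Inside called regions alone, Nrp1 was denser in liver, at 37.4 tags per covered kb against 31.6 in heart. Over lung and kidney, the heart level was 2.12-fold [2.01 to 2.23] and 4.00-fold [3.77 to 4.23] higher.

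The organs differed in where along Nrp1 the tags lay. The longest heart region, 63.4 kb at 39.0 tags per kb, ran from 128354973 to 128418373 and so over the start. By contrast, the longest liver region, 57.0 kb at 48.9 tags per kb, ran from 128437208 to 128494215 and did not touch the start. With Nrp1 cut into 10 equal bins, the level in the 5 bins nearest the start was 35.8 tags per kb in heart, 13.0 in lung, 8.15 in liver and 6.14 in kidney. In the 5 bins nearest the end it was 38.1 in liver, 19.2 in heart, 13.0 in lung and 7.63 in kidney, so liver and heart changed places.

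The lncRNA gene Gm32643, 39.9 kb at 128453055 to 128492985, lies inside this later stretch of Nrp1, and the assay has no strand, so regions there cannot be assigned to one of the genes. Gm32643 was covered over 100% in liver, 75.9% in lung, 71.2% in heart and 51.8% in kidney. Its span held 57.6% of the Nrp1 tags in liver, 45.9% in kidney, 28.8% in lung and 15.6% in heart. Outside other annotated genes, Nrp1 had 31.9 tags per kb in heart, 13.5 in liver, 12.7 in lung and 5.10 in kidney. The covered share there was 92.9%, 47.4%, 63.2% and 29.2%, which takes Nrp1 in liver below 50%.

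Nrp2 was higher in heart and liver than in kidney and lung. It spans 115.4 kb at 62703317 to 62818692 of chromosome 1, on the plus strand. Its level was 8.73 tags per kb in heart [8.19 to 9.29], 7.71 in liver [7.36 to 8.08], 2.53 in kidney [2.31 to 2.76] and 1.35 in lung [1.17 to 1.55]. Lung, second for Kdr and Flt1, was lowest for Nrp2, and heart exceeded it 6.47-fold [5.56 to 7.55] and liver exceeded it 5.71-fold [4.95 to 6.63]. Heart and liver lay close, at a ratio of 1.13 [1.05 to 1.22], and outside other annotated genes the log2 ratio was -0.01. The lung start region began 0.07 kb past the annotated start. Tags lay towards the start in every list: the 5 bins nearest the start had 15.7 tags per kb against 1.76 in the others in heart, 13.5 against 1.94 in liver, 4.43 against 0.628 in kidney and 2.41 against 0.287 in lung. The longest liver region, 18.5 kb at 27.4 tags per kb, lay 14.6 to 33 kb past the start, and the longest heart region, 14.4 kb at 26.6, lay 9.89 to 24.3 kb past it.

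Tek was the receptor gene for which lung, not heart, was highest. It spans 135.9 kb at 94739086 to 94874976 of chromosome 4, on the plus strand. Its level was 5.16 tags per kb in lung [4.84 to 5.51], 4.08 in heart [3.74 to 4.43] and 0.244 in kidney [0.184 to 0.318], and liver had no region. Lung exceeded heart 1.27-fold [1.14 to 1.41], under the 2-fold mark, and kidney 21.2-fold [16.1 to 28.3]. Inside called regions the order was the other way, 24.5 tags per covered kb in heart and 18.8 in lung, over 22.6 kb and 37.3 kb. With regions of at least 18.2 tags per kb, the heart to lung log2 ratio turned from -0.34 to 0.09. That limit is the caller's threshold in heart and lies above the 16.5 of lung. It therefore bears harder on lung regions, and the turn does not decide the order of the 2 organs.

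At Tek most tags sat near the start and in a second block far inside the gene. Bin 1 of 10 held 55.0% of the heart tags and 36.8% of the lung tags. The lung start region was 15.0 kb long at 20.4 tags per kb, and the heart one 5.16 kb at 30.5. Bin 7 had 8.08 tags per kb in heart and 9.66 in lung, with 0 and 0.637 in bin 6. There the largest regions lay 86.4 to 88.9 kb past the start in heart and 86.9 to 91.9 kb in lung. Heart bases covered at Tek lay inside lung regions for 74.1% of their length, and lung bases inside heart regions for 44.9%.

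Tie1, the shortest of the 10 genes, had its densest region over the start in heart, lung and liver. It spans 18.7 kb at 118471191 to 118489849 of chromosome 4, on the minus strand. Its level was 5.07 tags per kb in heart [4.07 to 6.18], 2.86 in lung [2.23 to 3.61], 0.748 in liver [0.497 to 1.08] and 0.517 in kidney [0.295 to 0.839]. The kidney and liver intervals overlapped, and those of heart and lung lay apart from each other and from both. Heart exceeded lung 1.77-fold [1.28 to 2.44]. The start was inside a region of 3.42 kb in heart, 2.11 kb in lung and 1.92 kb in liver, at 30.9, 22.0 and 22.8 tags per kb. In liver the start region was the one region of Tie1, so all of its liver tags lay in bin 1 of 10, against 61.0% in heart and 49.2% in lung. The one kidney region, of 0.5 kb, lay 14.6 kb past the start. Liver thus had a region over the start of Tie1 and none at Tek, the gene of its partner receptor.

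The 3 ligand genes had low values in all lists. Angpt1, at 42424667 to 42676977 of chromosome 15 (252.3 kb, the longest of the 10), had 0.635 tags per kb in kidney [0.561 to 0.717], 0.482 in heart [0.399 to 0.576], 0.344 in lung [0.283 to 0.411] and 0.257 in liver [0.215 to 0.305]. Neighbours in that order had overlapping intervals, and with another scaling (to tags in regions on the nuclear chromosomes) the heart to lung log2 ratio went from 0.49 to -0.00102. Between 1.55% and 3.35% of its span was covered. The densest kidney region, 30.0 tags per kb at 42675489 to 42676736, lay by the upper end of the gene, where heart and lung also had one and liver had none.

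Angpt2 lies wholly inside Mcph1, a gene of chromosome condensation, so its regions cannot be assigned to one of these genes. At 18690263 to 18741562 of chromosome 8 (51.3 kb) the level was 1.92 tags per kb in liver [1.66 to 2.2], 1.15 in lung [0.917 to 1.44] and 0.377 in kidney [0.257 to 0.531], and heart had no region. Heart, the organ with the most receptor signal, was thus the list without a call there. Under that same other scaling the liver to lung log2 ratio went from 0.74 to -0.04. The main liver region spanned 4.21 kb at 18712060 to 18716265, at 21.6 tags per kb. Mcph1 as a whole was covered over 3.47% in liver, 3.54% in lung, 3.21% in kidney and 0.373% in heart.

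Vegfc encodes VEGF-C, the ligand of VEGF receptor 3, and spans 108.9 kb at 54077532 to 54186454 of chromosome 8, on the plus strand. Its level was 0.560 tags per kb in liver [0.464 to 0.667], 0.409 in kidney [0.322 to 0.514], 0.293 in heart [0.203 to 0.420] and 0.176 in lung [0.117 to 0.263]. Each organ's interval overlapped the next, while liver and lung lay apart, at 3.18-fold [2.02 to 4.95]. The ratio was 1.37-fold [1.01 to 1.85] for liver over kidney, 1.39-fold [0.898 to 2.16] for kidney over heart and 1.66-fold [0.956 to 2.89] for heart over lung. The start was overlapped in kidney and liver, by regions of 2.24 kb and 2.88 kb at 17.9 and 19.6 tags per kb, and not in heart or lung. The protein-coding gene Gm33153 overlaps the first 6.21 kb of Vegfc, and that stretch held 100% of its kidney tags and 73.8% of its liver tags. Outside Gm33153, Vegfc had 0.217 tags per kb in heart, 0.156 in liver, 0.0769 in lung and none called in kidney, so that heart was first. Over the 8 genes with an annotated start, the window from 250 bases before to 50 after it was overlapped for 6 in heart, 5 in liver, 5 in lung and 3 in kidney, against 42.0%, 46.9%, 42.9% and 47.6% of all genes.

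The other genes of the pathway were 42 genes in 4 groups. Of these, 18 were covered over at least 50% of their span in heart, 16 in lung, 13 in kidney and 11 in liver. Over all genes, 16.1% reached 50% in heart, 15.1% in lung, 21.1% in kidney and 21.9% in liver. The median covered share of the 42 genes was 36.6% in heart, 37.3% in lung, 25.3% in kidney and 13.5% in liver. Over all genes that median was 2.26%, 3.88%, 5.07% and 2.76%. Among the other ligands, Vegfb was covered over 100% in all 4 lists, and Vegfa, the principal ligand of Kdr, over 100% in heart, kidney and liver and 78.2% in lung. Its level was 40.9 tags per kb in heart, 34.5 in liver, 30.2 in kidney and 17.5 in lung. Kidney, with the lowest Kdr level, thus had Vegfa covered over its whole span. Pgf, a ligand of VEGF receptor 1, was covered over 25% in heart and 6.01% in kidney and had no region in liver or lung. Ligand processing and partner genes reached 50% for 4 of 10 in heart, 4 in lung, 2 in kidney and 2 in liver. Eng and Furin did so in all 4 lists. Ptprb, the phosphatase that acts on Tie2, was covered over 50.4% in heart and 39.7% in lung.

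Of 8 semaphorin and plexin genes, whose products share neuropilins with VEGF, 2 reached 50% in heart, 1 in lung and 0 in kidney and liver. Over all genes, 16.1% did so in heart, 15.1% in lung, 21.1% in kidney and 21.9% in liver. Gipc1, an adaptor that binds neuropilin 1 inside the cell, was covered over 56.4% in heart, 78.4% in lung, 73.0% in kidney and 15.8% in liver. Plxnd1, a semaphorin receptor of endothelium, had 40.3 tags per kb in heart, 7.20 in lung, 5.6 in kidney and 0.954 in liver. Intracellular signalling genes reached 50% for 9 of 18 in heart, 8 in kidney, 8 in lung and 7 in liver. Plcg1, Grb2, Mapk3, Shb and Pik3r1, which act downstream of many receptors, were covered over at least 50% in every list. Nos3, the endothelial nitric oxide synthase, was covered over 83.8% in heart and between 5.08% and 9.97% elsewhere.

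Endothelial markers outside the 10 were highest in heart for 11 of 12 genes, all but Vwf, and 7 of these were second in lung. Heart was highest for 26.7% of all genes with a region in any list. Of 12 endothelial markers, 8 were covered over at least 50% in heart, 6 in lung, 3 in kidney and 3 in liver, and their summed level was 309, 160, 91.6 and 68.1 tags per kb. Their median covered share was 85.5%, 58.3%, 12.3% and 1.22% in the same order, and Eng and Cdh5 stand also among the partner genes above. Over all genes, 16.1% reached 50% in heart, 15.1% in lung, 21.1% in kidney and 21.9% in liver. Markers without a region numbered 6 in liver (Cdh5, Emcn, Cldn5, Robo4, Cd34 and Adgrl4) and 2 in kidney (Cdh5 and Cldn5). Heart exceeded lung 2-fold for 6 of 12 markers (26.0% of all genes), with 1 the other way (20.0%), and kidney for 8 of 10 (20.9%). Cldn5, a tight junction gene of endothelium, had 30.3 tags per kb in heart and 21.7 in lung, and Egfl7, a secreted endothelial factor, had 56.6 in heart, 31.8 in lung, 24.0 in liver and 20.6 in kidney. Of 14 endothelial transcription factor genes, 10 reached 50% in heart, 9 in lung, 3 in kidney and 3 in liver, and 12 had their highest level in heart, with Nr2f2 and Foxc2 highest in kidney. The part of endothelial cell number in the receptor values was not tested.

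**Figure D5:**
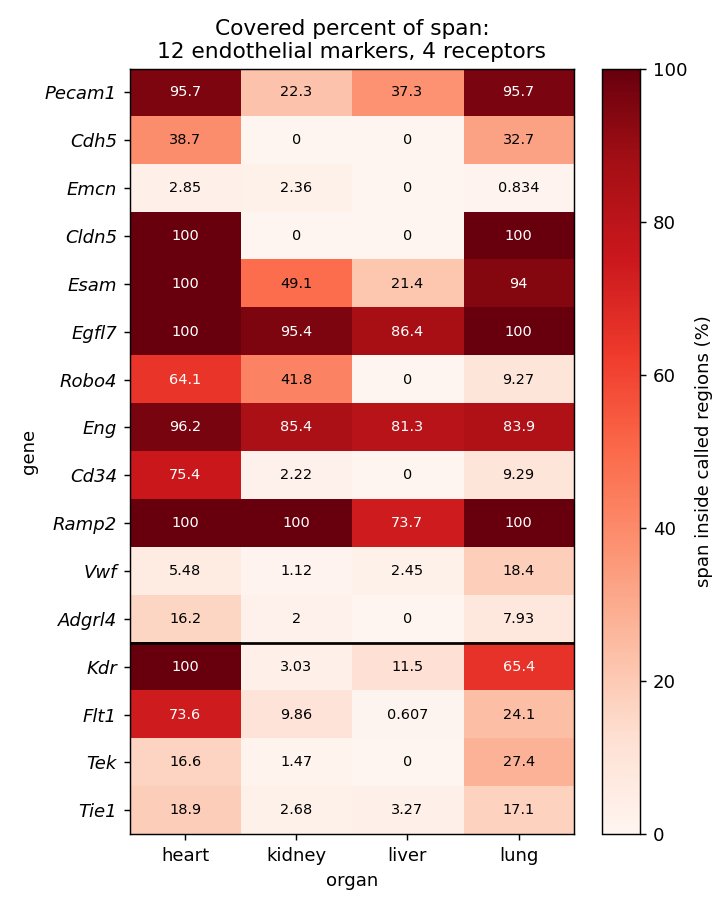
Percent of the annotated span inside called regions in the 4 lists, for 4 receptor genes (Kdr, Flt1, Tek and Tie1) beside 12 endothelial markers that are not among the genes described here. The median covered share of the 12 markers is 85.5% in heart, 58.3% in lung, 12.3% in kidney and 1.22% in liver.

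Markers of other vessel-associated cells had other patterns. The share of all genes that reached 50% was 16.1% in heart, 15.1% in lung, 21.1% in kidney and 21.9% in liver. Liver sinusoidal endothelial genes reached 50% for 3 of 8 in liver (Oit3, Dnase1l3 and Lyve1), 1 in lung and 0 in heart and kidney, and Clec4g had no region in any list. Their summed level was 66.9 tags per kb in liver, 27.3 in lung, 18.8 in heart and 10.6 in kidney. Lymphatic markers, a list that includes Flt4, reached 50% for 2 of 7 in liver (Prox1 and Lyve1), 1 in lung (Lyve1) and 0 in heart and kidney, and 4 of 7 had no region in liver (Pdpn, Reln, Mmrn1 and Ccl21a). Prox1 was covered over 100% in liver and 37.3% in heart and had no region in kidney or lung. Prox1 is also a hepatocyte gene. Lyve1 was covered over 95.8% in lung and 84.5% in liver, and stands in the sinusoidal list too. Pericyte and mural cell genes reached 50% for 1 of 9 in heart (Des, also a muscle gene), 1 in kidney and 1 in liver (Tagln in both) and 0 in lung, with summed levels of 74.6, 30.7, 39.2 and 8.40 tags per kb. Of the podocyte genes, which mark the kidney cells that supply VEGF to glomerular capillaries, 0 of 6 reached 50% in kidney (heart and lung had 2 each, liver 1), and 4 of the 6 had a kidney region. The part of these cells in the values of the 10 genes was not tested.

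Genes whose levels over the 4 lists were most like those of 4 receptors were found among 16849 genes of at least 5 kb, by the Euclidean distance between log2 values of tags per kb with 0.5 added. Nearest to Kdr were Adam19 (distance 0.928), the endothelial transcription factor gene Sox7 (1.15) and Gnat3 (1.15). Adam19 had 29.6 tags per kb in heart, 7.88 in lung, 1.78 in liver and 0.533 in kidney. Nearest to Flt1 were Rhoq (0.417), Spsb1 (0.455) and Ogn (0.540), to Tek Ccnd2 (0.387), Pcdhga5 (0.428) and Pcdhgb2 (0.433), and to Tie1 Naa35 (0.476), Gsto2 (0.734) and Tlcd3b (0.739). The distances rest on 4 values per gene, and the protocadherin genes named share most of their span, so their values are not independent.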

How the data were processed

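Pol II chromatin from heart, kidney, liver and lung was analysed from 1 deposited region list per organ. The submitters' processing notes name the mm10 build, Bowtie2 2.2.8 and HOMER 4.8. The authors called regions in histone style with windows of 500 bp and a Poisson p threshold of 0.001, per the file headers, and no control library is named there. The deposited signal of a region is its tag count, which the authors normalised to a library of 10000000. The deposited score and the deposited ratio (clonal fold change) are the caller's own, and only the score was used, to rank regions within a list. Region lengths were deposited too. The handling of reads with several matches is not stated in the sources used here.

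Gene spans came from the GRCm38.p6 RefSeq gene table, the assembly behind mm10, and starts and strands from its promoter table. Each region's tags were shared out evenly over its length. A gene was called covered at 50% of its span. Ratios were called at 2-fold. Exact 95% Poisson and binomial intervals were computed from tags converted back to library tags with scipy 1.17.1, pandas 2.3.3 and numpy 2.4.6 on Python 3.11.15. PCR duplicates are not independent molecules, so intervals cover counting error only. With 1 list per organ no test was run. Overlap code was tested on simulated queries, of which 100% of 2000 equalled per-base counts.

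The 10 genes, the other gene lists and the thresholds were chosen with earlier results of these data known. Named genes were the 10 members, list genes given as examples (chosen after their values were seen) and, by rule, the 3 nearest genes to Kdr, Flt1, Tek and Tie1. Some genes of the lists are not reported here. Alternatives changed the covered share, the regions kept, the scaling, the flanks and the length basis.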

Additional observations from a re-analysis of the deposited data

How the results depend on the processing

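No paired analysis was possible because each organ has 1 list, and for the same reason no replicate could be left out. With 25% of the span as the limit, 1 of the 10 genes was covered in kidney and 2 in liver, 5 endothelial markers in kidney, and 21, 18 and 26 pathway genes in kidney, liver and lung. With 75%, the 10 genes gave 0 in liver and 0 in lung, and pathway genes 6 in kidney and 9 in lung. With the 50% of each list highest by score, the 10 genes gave 0 in liver and in lung, endothelial markers 5 in heart and 2 in lung, and pathway genes 11, 6 and 7 in heart, kidney and lung. Keeping regions of at least 18.2 tags per kb, the highest caller threshold, a setting chosen after seeing the data, gave 0 covered genes in liver and lung, heart over liver 2-fold for 1 gene and lung over liver for 0. Part of that loss is removal: Kdr, Flt1 and Flt4 no longer had a liver region, while their heart values were 46.3, 19.6 and 1.63. Regions of at least 10 tags left heart over liver for 2 genes, since Flt1 and Flt4 had no liver region left, and put 1 gene, Vegfc, 2-fold higher in kidney and in liver than in heart. Scaling to tags in regions on chromosomes 1 to 19, X and Y raised lung over liver to 5 genes. Outside other annotated genes, also chosen after seeing the data, liver had 0 covered genes, and Angpt2, inside Mcph1, gave no value.

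On density within covered length only, the 2-fold counts were 1 for heart over kidney, 1 for heart over liver, 1 for heart over lung, 0 for lung over kidney and 0 for lung over liver. There Tie1 turned direction for kidney to lung (log2 ratio 0.21) and liver to lung (0.45). These were the 2 sign changes among 172 alternative values of the 27 ratios of 2-fold or more, of which 141 stayed at 2-fold or more. These counts leave out the kidney to liver ratios, 6 of them 2-fold or more, which were not run under the alternatives. The 18 smaller ratios changed sign in 14 of 118 alternative values. Depth limits genes with few tags, such as Flt4, Tie1 and Vegfc.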
